A study of Mus musculus with 22 samples.

Results

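The genes described are the subunits of oxidative phosphorylation, the chain of protein complexes with which mitochondria make ATP. They were found by symbol among genes with a protein-coding transcript, as the families that begin with Nduf followed by a subunit letter and number, the genes Sdha to Sdhd, the Uqcr genes, the Cox4 to Cox8 families, the Atp5 genes and every gene with the prefix mt-. The rule took 99 of 55385 genes in the deposited tables. Of these, 86 are encoded in the nucleus and 13 in mitochondrial DNA. Complex I had 36 nuclear and 7 mitochondrially encoded members, complex II 4 and 0, complex III 8 and 1, complex IV 20 and 3, and complex V, the ATP synthase, 18 and 2. The symbol rule missed Ndufab1, Cyc1 and Cycs, which are described with the other mitochondrial genes. A total of 97 members had enough counts to be tested, 84 of them nuclear, and the exceptions were the testis isoform Cox8c and a second gene ID of Atp5o (ENSMUSG00000116933.1).

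In oxidative phosphorylation, complexes I to IV pass electrons from NADH and succinate to oxygen, and complexes I, III and IV pump protons across the inner mitochondrial membrane, which complex V uses to make ATP. Complex II is built from nuclear genes only, while the other complexes join nuclear subunits, made on cytosolic ribosomes and imported, with subunits made inside the organelle from mitochondrial DNA. In brain most ATP comes from this pathway, and several of the small subunits of complexes I, IV and V have paralogs whose expression is restricted to certain tissues, such as heart and skeletal muscle.

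Messenger RNA was taken from tagged ribosomes of 6 brain cell types of mice aged 6 weeks, in 3 replicates each. All mice carried 1 floxed Rpl22 allele (Fl/+), which adds an HA tag to a ribosomal protein of the cytosol after Cre recombination. Dentate gyrus granule cells (from hippocampus) and layer V cortical neurons (from cortex) were both tagged by Rbp4-Cre, cerebellar granule cells (from cerebellum) by Gabra6-Cre and inhibitory interneurons (from hippocampus) by Dlx6a-Cre. Astrocytes were tagged by Aldh1-cre, as the labels give it, and microglia by Tmem119-cre, both in cortex and both with a Cre that needs tamoxifen. Each group rests on 1 driver line, both sexes were used, and every interneuron library pooled 2 mice. The ribosome preparation enriches RNA of the tagged type and does not isolate it, and mitochondrially encoded mRNAs are translated on ribosomes that do not hold the tagged protein. Levels are given as TPM, a length-corrected share of the transcripts in a library, and in such bulk preparations fewer cells of a type and less RNA per cell cannot be told apart.

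The 18 libraries used held between 38270477 and 71440915 estimated counts. All 3 libraries of interneurons and of microglia came from batch 2 and the other 12 from batch 1, so in the libraries compared these types differ from the others also in batch. Batch 2 holds 1 repeat library of each of the other types, which allowed fits within it. In these 4 replicates, sequenced in both batches, the repeat was close, with a median absolute log2 ratio between 0.026 and 0.035 over 96 members. Each type's own marker list was highest in that type, except that the layer V list was as high or higher in other neurons, and of its 4 genes only Fezf2 was highest in layer V neurons, while Etv1 led in cerebellar granule cells, Bcl11b in dentate gyrus granule cells and Parm1 in interneurons. Markers of other cells were present. The summed TPM of 5 oligodendrocyte genes was 2612 to 2795 in interneurons and 102 to 982 elsewhere, red blood cell genes reached 3489 to 7252 in astrocytes, and pericyte genes reached 244 to 333 in microglia and 108 to 117 in astrocytes. Their part in the results below was not tested.

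Nuclear subunit mRNA was highest in interneurons and lowest in microglia. Summed over the 86 nuclear genes, interneuron libraries held 43893, 44160 and 45844 TPM in order of size, layer V neurons 39360, 39629 and 40129, and cerebellar granule cells 34978, 35882 and 36760. Astrocytes held 32834, 33163 and 35807 TPM, dentate gyrus granule cells 27292, 32580 and 32891, and microglia 16854, 17006 and 17077. Interneurons, layer V neurons and microglia each stood clear of their neighbours in this order, while astrocytes overlapped both cerebellar and dentate gyrus granule cells. When TPM was scaled over nuclear protein-coding genes only, interneurons (48638 to 51079) and layer V neurons (47604 to 49514) overlapped. The mean of interneurons was 2.63 times that of microglia.

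Mitochondrially encoded mRNA followed another order. These mRNAs are not translated on the tagged ribosomes, so their level in a library need not be that of the tagged cells. How far it is was not tested. Summed over the 13 genes, astrocytes held 18185, 22230 and 23995 TPM, microglia 13353, 14245 and 18673, and dentate gyrus granule cells 7737, 9620 and 13603. Interneurons held 6825, 9407 and 10414 TPM, layer V neurons 4336, 5188 and 5755, and cerebellar granule cells 1982, 2229 and 2510. Layer V neurons and cerebellar granule cells each lay below all libraries of the other types ranked above them, whereas neighbours from astrocytes down to interneurons overlapped. The mean of astrocytes was 9.58 times that of cerebellar granule cells, a wider range than among the nuclear genes.

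As a result, the mitochondrial sum per nuclear sum ran from 0.0552 to 0.0683 in cerebellar granule cells to between 0.782 and 1.11 in microglia, a 14.6-fold difference of means. It was 0.110 to 0.145 in layer V neurons, 0.155 to 0.237 in interneurons, 0.235 to 0.418 in dentate gyrus granule cells and 0.554 to 0.670 in astrocytes. Interneurons and dentate gyrus granule cells overlapped slightly, and all other steps in this order were separate. Both glial types thus lay above all 12 neuronal libraries, and the ratio does not depend on which other genes share the library. The limit given for the mitochondrial sum holds for this ratio too. When reads of pseudogenes that share sequence with members were added, the ratio ran from 0.0655 to 0.0798 in cerebellar granule cells and from 0.983 to 1.41 in microglia.

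**Figure D1:**
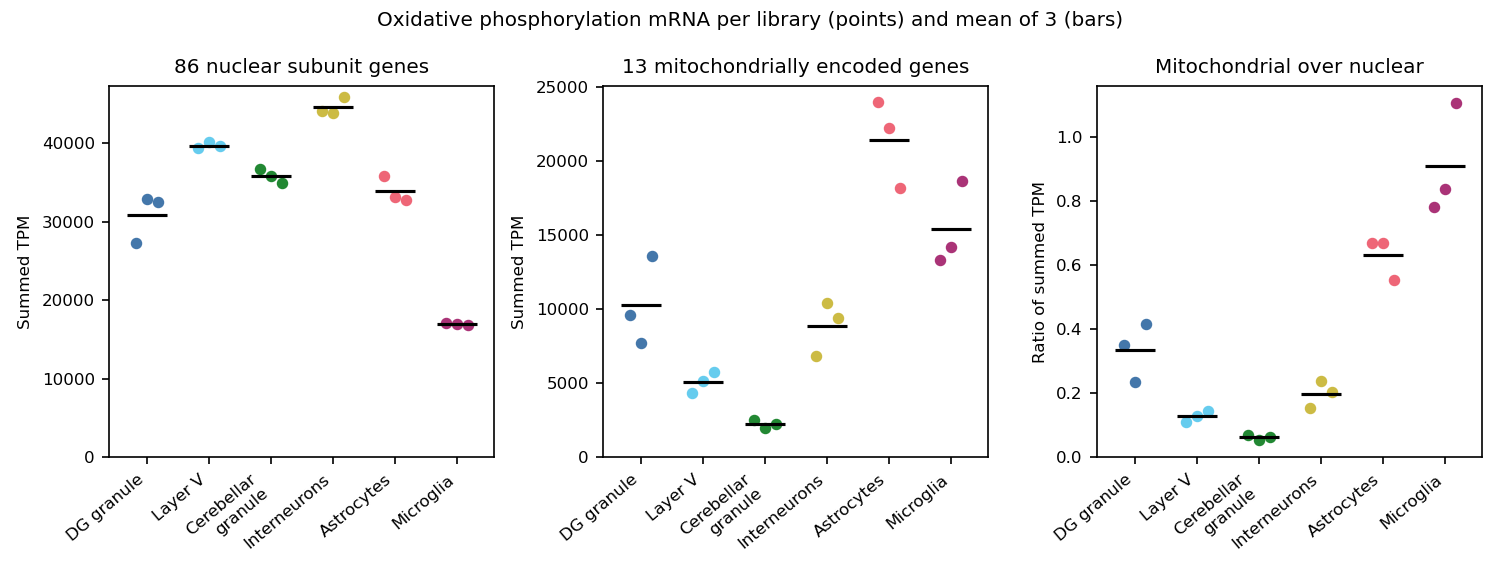
Summed TPM of the 86 nuclear and the 13 mitochondrially encoded subunit genes, and the ratio of the second to the first, in each cell type. Points are libraries and bars the mean of 3; interneurons lead the nuclear panel, astrocytes the mitochondrial one, and microglia the ratio, with cerebellar granule cells lowest in the last 2 panels.

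The nuclear sum was divided among the complexes in nearly the same way in every cell type, with small differences that separated the types. Complex I took 31.8 to 32.2% of nuclear subunit TPM in microglia, 29.6 to 29.7% in astrocytes and 27.7 to 27.9% in cerebellar granule cells. Complex V was the reverse, with 34.8 to 35.2% in cerebellar granule cells and 28.5 to 28.8% in microglia, so that the types at either end were the same but in opposite order. Complex IV took its largest share in layer V neurons, 28.3 to 28.6%, against 24.8 to 25.0% in cerebellar granule cells. Complex III took 11.3 to 11.6% in astrocytes, 10.9 to 11.3% in microglia and between 9.54 and 10.1% in all neurons. Complex II, the smallest, took 3.17 to 3.31% in astrocytes and 3.20 to 3.25% in microglia, and in layer V neurons 1.97 to 2.05%. For complexes II and III both glial types lay above all neurons.

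**Figure D2:**
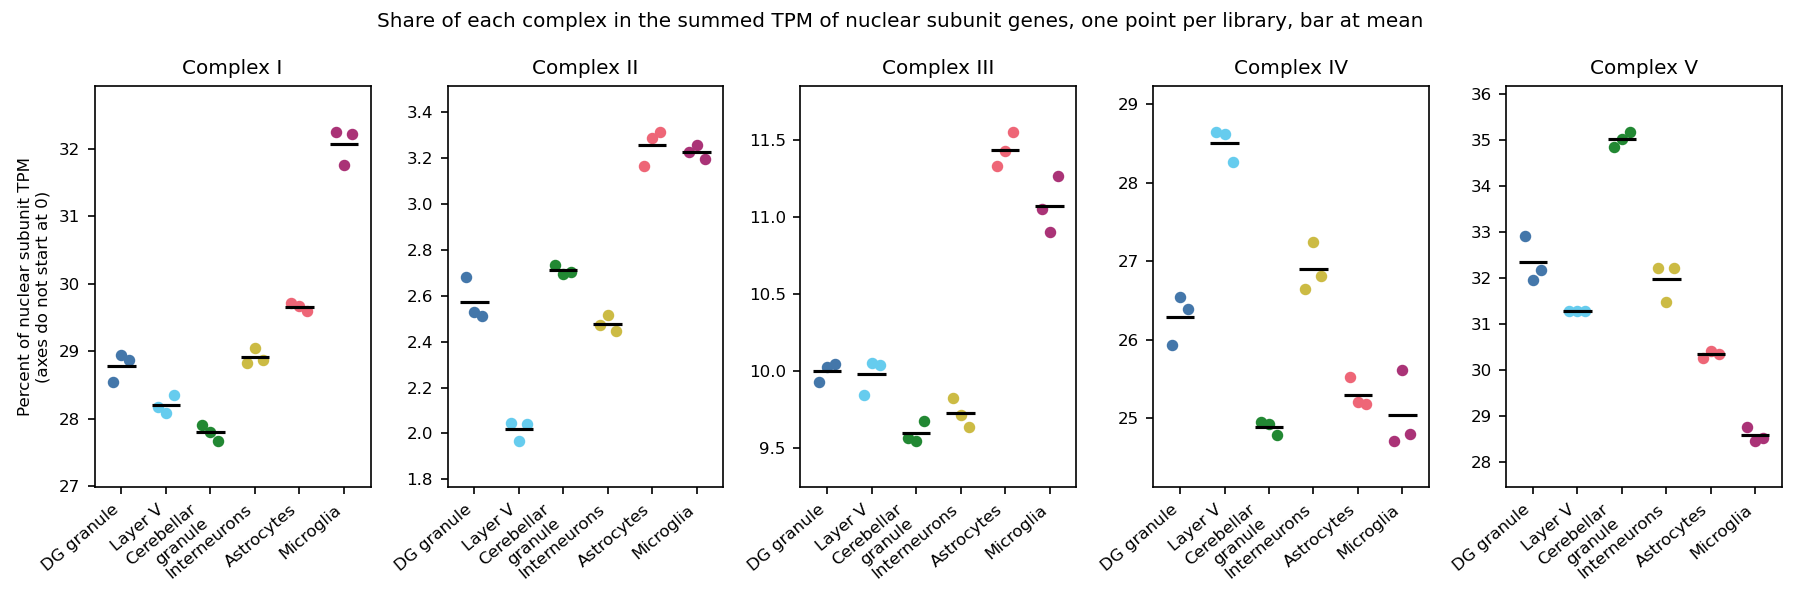
Percent of the summed TPM of nuclear subunit genes held by each complex, per library, with bars at the mean of 3. Axes do not start at 0. Complex I is highest in microglia and complex V in cerebellar granule cells, while complex IV is highest in layer V neurons.

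Of the 84 nuclear members tested, the mean TPM was highest in interneurons for 47 and lowest in microglia for 69. Of the 13 mitochondrially encoded genes, 10 were highest in astrocytes and 3 in microglia, and 12 were lowest in cerebellar granule cells. The same counts over all genes tested were not made, so these have no background to be set against. For 67 nuclear members, the 3 microglial libraries all lay below the other 15 in TPM, as was the case for 15.4% of all genes tested. Among the 75 nuclear members with a mean of at least 50 TPM, the ratio of the highest to the lowest cell type had a median of 2.54. It was smallest for Ndufs8, an iron-sulphur subunit of complex I, at 1.43, and largest for Atp5md, a small membrane subunit of complex V, at 6.20.

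Differences between cell types were tested per gene with edgeR's quasi-likelihood test on counts, with p-values adjusted over all 20524 genes tested. The fold changes below are on its log2 scale, with the standard error, and a gene is called at an adjusted p of at most 0.05. Astrocytes and microglia were first set against the mean of the 4 neuron types.

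In microglia, nearly all nuclear subunits were lower than in neurons and mitochondrially encoded ones were higher. Against the 4 neuron types, 72 of 84 nuclear members were lower, beside 37.2% of all genes tested, and 7 were higher, beside 45.1%. Their median was -0.79, beside 0.15 over all genes. Every nuclear subunit of complex III was lower, 8 of 8, as were 33 of 36 of complex I, 3 of 4 of complex II, 12 of 19 of complex IV and 16 of 17 of complex V. Of the 13 mitochondrially encoded genes 11 were higher and none was lower, with a median of 1.56. The exceptions were mt-Atp8, at 0.18 (SE 0.26), and mt-Nd3, at 0.51 (SE 0.63), which were not called.

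Atp5md, also called DAPIT, is needed for ATP synthase dimers. It measured 199.8, 210 and 181 TPM in replicates 1 to 3 of microglia, 1242, 1213 and 1207 in layer V neurons, 785, 920 and 859 in dentate gyrus granule cells, 948, 922 and 985 in interneurons, 679, 681 and 663 in cerebellar granule cells and 582, 555 and 490 in astrocytes. All microglial libraries were below all others, and all layer V libraries above. The difference of microglia from neurons was -1.84 (SE 0.05, adjusted p = 5.5e-17 by edgeR), the lowest of the members. Ndufa4, a protein first assigned to complex I and now placed in complex IV, measured 359, 382 and 346 TPM in microglia, against 1779, 1807 and 1876 in interneurons and 820 to 962 in astrocytes, and differed from neurons by -1.78 (SE 0.04). Cox7a2l, a paralog of the Cox7a subunits that helps to join complexes III and IV, went the other way. It measured 252, 265 and 249 TPM in microglia and 139 to 140.4 in cerebellar granule cells, with interneurons (236 to 257) and dentate gyrus granule cells (226 to 262) overlapping microglia, and was called higher in microglia than in neurons at 0.49 (SE 0.04, adjusted p = 7.8e-09 by edgeR).

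Astrocytes stood near neurons in most nuclear subunits and above them in all mitochondrially encoded ones. Of the 84 nuclear members 52 were higher than in neurons, beside 43% of all genes, and 11 were lower, beside 34.1%, with a median of 0.19 against 0.14 over all genes. These counts are on edgeR's scale. In summed TPM, astrocytes (32834 to 35807) lay below layer V neurons (39360 to 40129) and interneurons (43893 to 45844) and overlapped both granule cell types. Of the 84 members, 9 had their highest mean TPM in astrocytes and 0 their lowest, with no such count made over all genes. The split on the TPM scale was not tested. All 13 mitochondrially encoded genes were higher, with a median of 2.06. Among the 11 lower were 2 ATP synthase subunits also low in microglia, Atp5g1 at -0.90 (SE 0.04) and Atp5md at -0.44 (SE 0.04). Ndufb11, an accessory subunit of complex I, measured 258, 242 and 241 TPM in astrocytes, 217 to 227 in interneurons and 105 to 108 in microglia, and no library of another type reached the astrocyte values. Its difference from neurons was 0.74 (SE 0.04, adjusted p = 3.6e-12 by edgeR). With Ndufb11, the nuclear members whose 3 astrocyte libraries all lay above the other 15 in TPM were Cox4i2, Cox6b2, Cox7a1, Cox7b2 and Sdhc, 6 of 84, joined by 4 of 13 mitochondrially encoded genes, beside 10.4% of all genes, so that the nuclear share was no higher than the background. By CPM these counts were 21 and 7, beside 13% of genes.

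When both glial types were averaged against neurons, 62 nuclear members were lower, beside 36.4% of genes, and 15 were higher, beside 46.8%, with a median of -0.28. All mitochondrially encoded genes but mt-Nd3 were higher, 12 of 13, with a median of 1.94. This average joined glia that differed from each other in most members. Astrocytes were higher than microglia for 81 of 84 nuclear members, beside 39.8% of genes, and lower for 3, beside 36.3%. The median was 1.09, beside 0.04 over all genes, and by complex it was 0.92 for complex I, 1.09 for complex II, 1.10 for complex III and 1.15 for complexes IV and V. Uqcrfs1, the Rieske iron-sulphur protein of complex III, measured 341, 318 and 313 TPM in astrocytes and 81.7, 82.5 and 78.8 in microglia. The groups were far apart, and the difference was 2.07 (SE 0.05, adjusted p = 1e-16 by edgeR). The 3 members lower in astrocytes were Ndufa4l2, at -1.74 (SE 0.26), Cox6a2, at -1.05 (SE 0.28), and Cox7a2l, at -0.31 (SE 0.06), of which Cox6a2 was not called when only batch 2 libraries were fitted (-0.89).

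Between the glial types, fewer of the mitochondrially encoded genes were called. Here 6 of 13 were higher in astrocytes, close to the 39.8% of all genes, and none was lower. They were mt-Atp8, mt-Co3 (1.06, SE 0.18), mt-Atp6 (1.02, SE 0.21), mt-Nd4l, mt-Co1 (0.78, SE 0.15) and mt-Nd4, the last of which was lost without astrocyte replicate 1 or microglia replicate 1. Without single libraries the count ran from 5 to 9. Microglia were all of batch 2 and the astrocyte libraries of batch 1, with 1 astrocyte replicate repeated in batch 2. With all 22 libraries and batch as a covariate, 80 nuclear members were higher in astrocytes, beside 38.3% of genes, and 3 were lower, beside 36.1%. In that fit both libraries of a repeated replicate entered as separate samples, so its calls do not rest on independent samples only.

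**Figure D3:**
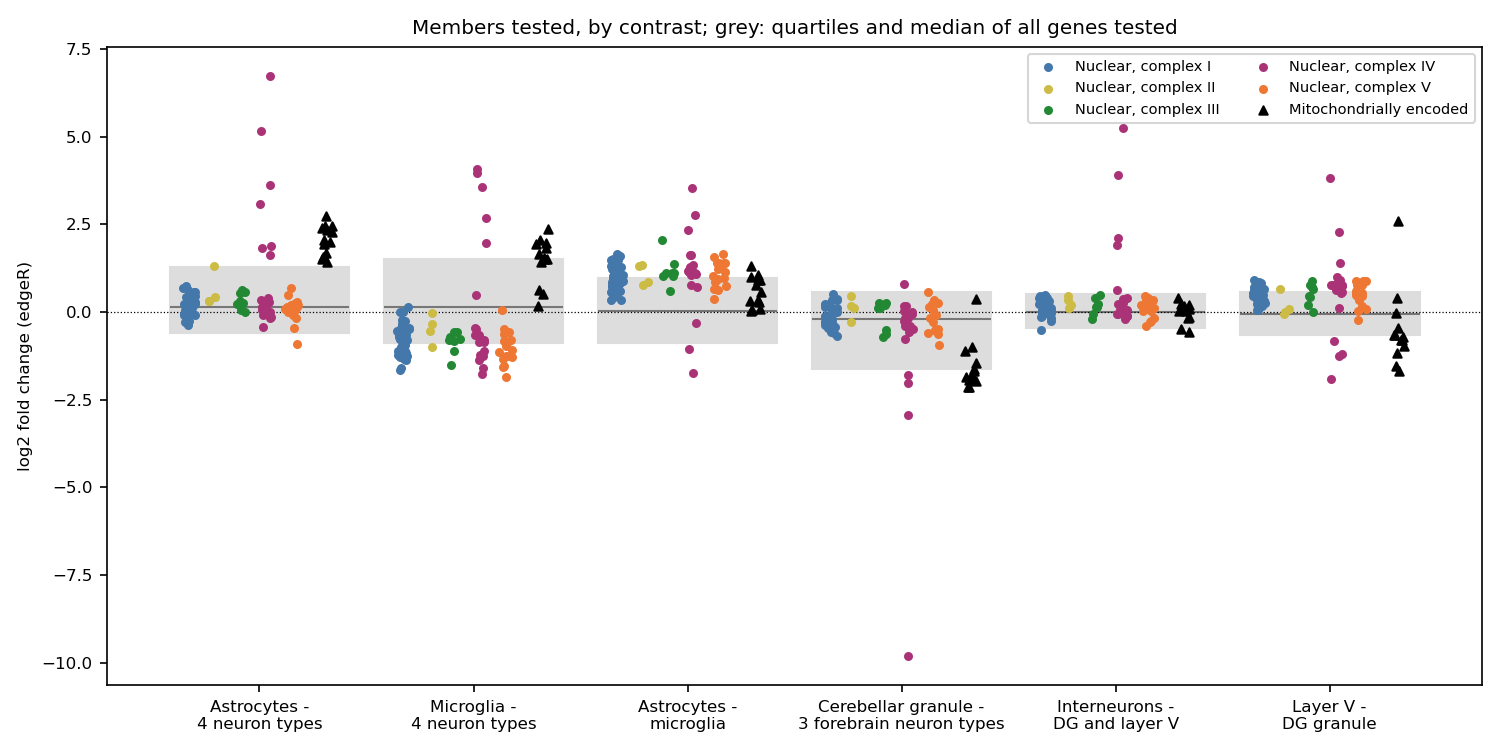
Log2 fold change by edgeR of the 97 members tested in 6 contrasts, 1 symbol per gene, with circles for nuclear members coloured by complex and triangles for mitochondrially encoded genes. Grey boxes span the quartiles of all genes tested and lines mark their median; most circles and triangles lie apart for microglia, astrocytes and cerebellar granule cells, and the lowest circle is Cox6a2, which had 0 counts in cerebellar granule cells, so that its fitted value is no measure of size.

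The libraries of cerebellar granule cells had the least mitochondrially encoded mRNA of the 6 types, which need not be the level in the cells themselves. Against the mean of the 3 forebrain neuron types, 12 of 13 mitochondrially encoded genes were lower, with a median of -1.84, beside 43% of genes lower and a median of -0.21 over all genes. All but mt-Nd3 and mt-Nd6 lay below every one of the other 15 libraries, 11 of 13, as was true of 18.1% of genes. Cytochrome b of complex III, mt-Cytb, measured 131, 107 and 123 TPM in cerebellar granule cells, 285, 345 and 363 in layer V neurons, 467, 732 and 621 in interneurons, while dentate gyrus granule cells held 694, 575 and 1040. Cerebellar granule cells and layer V neurons each stood apart, interneurons and dentate gyrus granule cells overlapped, and the difference of cerebellar granule cells from the forebrain types was -2.13 (SE 0.17, adjusted p = 2.2e-09 by edgeR).

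Nuclear members moved both ways in cerebellar granule cells, 26 higher, beside 34.9% of genes, and 44 lower, beside 43%. Their median was -0.15, beside -0.21 over all genes. The split by complex was uneven. Of complex IV, 1 of 19 nuclear members was higher (Ndufa4) and 11 were lower, while of complex III 5 of 8 were higher and 3 lower, and of complex II 3 of 4 higher and 1 lower. Complex V had 7 of 17 higher and 8 lower, near the shares of all genes, and complex I 10 of 36 higher and 21 lower. Those higher included catalytic subunits. Atp5b, the catalytic beta subunit of ATP synthase and the complex V member of highest mean level, measured 2667, 2646 and 2712 TPM in cerebellar granule cells, 2474, 2242 and 2514 in interneurons, 1716 to 1792 in layer V neurons and 1486 to 1723 in dentate gyrus granule cells. Every cerebellar library was above every other library, and the difference was 0.58 (SE 0.04, adjusted p = 2.6e-10 by edgeR). Ndufs1, the largest iron-sulphur subunit of complex I, measured 219, 206 and 214 TPM in cerebellar granule cells and 190 to 195 in interneurons, the next highest, with a difference of 0.52 (SE 0.04). The count of nuclear members higher was 17, with 49 lower, under upper-quartile scaling, where 32.1% of all genes were higher and 45.9% lower. It was 32, with 33 lower, when only batch 1 libraries were fitted, which leaves out interneurons, beside 38.5% and 42.02% of all genes. For Ndufb2, an accessory subunit of complex I, the direction depended on the scale, at 0.34 (SE 0.04) on counts and -0.30 on log2 TPM.

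Interneurons were set against the mean of dentate gyrus granule cells and layer V neurons. Of the 84 nuclear members, 52 were higher, beside 31.4% of genes, and 9 were lower, beside 30.2%, with a median of 0.19 against -0.00 over all genes. All 4 genes of complex II and 6 of 8 of complex III were among those higher. Cox5a, a subunit that joins complex IV early in its assembly, measured 1239, 1281 and 1280 TPM in interneurons, 891, 864 and 862 in layer V neurons and 511, 614 and 627 in dentate gyrus granule cells. No other cell type reached the interneuron level, and the difference was 0.62 (SE 0.05, adjusted p = 3.1e-09 by edgeR). The 9 lower ones included Ndufb4, an accessory subunit of complex I that shares sequence with the copy Ndufb4c, at -0.50 (SE 0.06), and Atp5md, at -0.29 (SE 0.04). By TPM, 31 nuclear members lay above the other 15 libraries in all 3 interneuron libraries, beside 10.2% of genes, and by CPM, the share of a library's counts with no correction for length, 7 did, beside 6.63%. With limma on log2 TPM the split was 68 higher and 1 lower, beside 40.5% and 21.8% of all genes. The mitochondrially encoded genes gave no common direction here, with mt-Nd5 called higher (0.40, SE 0.13), mt-Nd6 called lower (-0.48, SE 0.19) and a median of 0.09. The call of mt-Nd6 was lost with limma, with the replicate number as a block and without any of 10 libraries. The oligodendrocyte genes given above were highest in these libraries.

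Layer V neurons and dentate gyrus granule cells, tagged by the same driver in different tissue, differed in nearly all subunits. In layer V neurons 69 of 84 nuclear members were higher, beside 30.3% of genes, and 1 was lower, beside 33.1%, with a median of 0.55 against -0.05 over all genes. Mitochondrially encoded genes were lower for 10 of 13 and higher for 1 (mt-Nd3), with a median of -0.70. Nuclear subunits of complex I were higher for 34 of 36, of complex III for 7 of 8, of complex IV for 13 of 19 and of complex V for 14 of 17. Complex II stood apart from these. Of its 4 genes only Sdhb was called higher, and Sdha (0.10, SE 0.05), Sdhc (-0.05, SE 0.05) and Sdhd (0.01, SE 0.04) were not called.

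Cox7b, a small subunit of complex IV, measured 513, 521 and 564 TPM in layer V neurons and 249, 312 and 339 in dentate gyrus granule cells, with no overlap, and differed by 0.99 (SE 0.06, adjusted p = 8.7e-11 by edgeR). By contrast mt-Nd5, a proton-pumping subunit of complex I, measured 103, 122 and 132 TPM in layer V neurons and 436, 365 and 572 in dentate gyrus granule cells, and fell by 1.69 on the log2 scale (SE 0.15, adjusted p = 2.2e-08 by edgeR). Layer V neurons thus held more of the nuclear gene and less of the mitochondrial one in every library. In this pair the limma fit on log2 TPM gave 61 nuclear members higher and 9 lower, beside 21.1% and 43.3% of all genes.

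Complex II oxidises succinate and is the only complex shared with the citric acid cycle. Its flavoprotein gene Sdha measured 456, 438 and 446 TPM in cerebellar granule cells, 425, 439.6 and 440.2 in interneurons, 382, 359 and 368 in astrocytes, 279, 302 and 301 in dentate gyrus granule cells, 264, 262 and 276 in layer V neurons and 165, 159.9 and 157 in microglia. Cerebellar granule cells and interneurons overlapped, and every other step was separate. The iron-sulphur subunit Sdhb was 325 to 341 TPM in interneurons and 179.9 to 189 in microglia. The membrane anchor Sdhc, at chr1:171127165-171150603 on the minus strand of GRCm38, differed from its partners. It measured 269, 261 and 271 TPM in astrocytes, 164, 159 and 159.8 in interneurons, 141, 127 and 119.7 in cerebellar granule cells, 109, 109.8 and 109 in microglia, 114, 133 and 128 in dentate gyrus granule cells and 104, 101 and 95.5 in layer V neurons. Astrocytes were above all other libraries, and the difference from neurons was 1.31 (SE 0.03, adjusted p = 1.8e-16 by edgeR), against 0.31 for Sdha, 0.45 for Sdhb and 0.32 for the second anchor Sdhd. In microglia Sdhc did not differ detectably from neurons (-0.04, SE 0.04), while Sdha was lower (-1.0001), as were Sdhb (-0.34) and Sdhd (-0.54).

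Paralog isoforms of complex IV gave the widest differences between cell types. Most of the restricted isoforms contributed only a small part of their family, and the common form led in every library for the Cox4i, Cox6a, Cox6b, Cox8 and Ndufa4 families. The values of the restricted form are given with its share of the family's TPM.

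Cox6a2, the isoform known from heart and skeletal muscle (ENSMUSG00000030785.8, chr7:128205435-128206387, minus strand, GRCm38), measured 78.9, 81.8 and 101 TPM in interneurons. It measured 7.88, 7.10 and 6.05 TPM in layer V neurons, 4.72, 5.84 and 10.3 in microglia, 3.27, 4.43 and 2.25 in astrocytes and 0.799, 0.740 and 0.215 in dentate gyrus granule cells. In cerebellar granule cells it had 0 counts in all 3 libraries. Interneurons lay above all other libraries without overlap, and there the gene made up 7.44 to 9.14% of Cox6a mRNA, next to 0.567 to 0.721% in layer V neurons. Interneurons exceeded the mean of dentate gyrus granule cells and layer V neurons by 5.27 (SE 0.25, adjusted p = 2.6e-11 by edgeR), and layer V neurons exceeded dentate gyrus granule cells by 3.83 (SE 0.40, adjusted p = 4.3e-07). Against a floor of 3 counts per library, cerebellar granule cells were at least 166-fold lower in CPM than the mean of the forebrain neurons. For glia against neurons the fit on counts gave 2.17, but its neuron mean includes the fitted value for the 0 counts of cerebellar granule cells. It is therefore no measure of size, and on log2 TPM the difference was -0.02. Its partner Cox6a1 was between 752 and 1106 TPM in all libraries of layer V neurons, cerebellar granule cells, interneurons and astrocytes.

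Several other restricted isoforms were highest in glia. Cox4i2 (ENSMUSG00000009876.13, chr2:152754173-152765037, plus strand), known from lung and from oxygen-sensing cells, measured 18.3, 16.98 and 17.2 TPM in astrocytes, 2.89, 2.95 and 2.24 in microglia and at most 0.572 in any neuron library. It differed by 6.74 (SE 0.18, adjusted p = 3e-16 by edgeR) between astrocytes and neurons and by 2.77 (SE 0.22) between astrocytes and microglia, but made up no more than 1.32% of Cox4i mRNA, since Cox4i1 stood at 1278 to 1391 TPM in astrocytes. Cox6b2, a testis isoform, measured 24.1, 20.5 and 19.7 TPM in astrocytes (3.48 to 3.96% of its family), 11.4, 8.15 and 10.8 in microglia and at most 2.47 in neurons. All libraries of each glial type lay above all neurons for both genes. Because Cox4i2 is also known from vascular mural cells, the pericyte list matters here: of its genes Pdgfrb had a mean of 26.7 TPM in astrocytes and 8.59 in microglia, while Rgs5 was 21.7 and 63.4, Vtn 49.9 and 189 and Higd1b 1.94 and 8.52. Their part in the Cox4i2 values was not tested.

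Cox7a1, the heart and muscle form of Cox7a, measured 19.0, 15.1 and 18.1 TPM in astrocytes, 9.84, 9.94 and 10.1 in layer V neurons, 7.54, 6.29 and 6.39 in interneurons, 6.38, 6.53 and 5.00 in cerebellar granule cells, 3.38, 3.49 and 3.42 in microglia and 2.46, 1.53 and 2.80 in dentate gyrus granule cells. Astrocytes were above and dentate gyrus granule cells below all other libraries. It was higher in astrocytes than in microglia by 2.35 (SE 0.20) and in layer V neurons than in dentate gyrus granule cells by 2.28 (SE 0.22). In this family the balance turned on Cox7a2l, which made up 59.2 to 61.6% of Cox7a mRNA in microglia, 38.5 to 43.3% in dentate gyrus granule cells and 23.2 to 24.4% in cerebellar granule cells. Cox7a2, the common form, stood at 162 to 168 TPM in microglia and 537 to 561 in interneurons.

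The remaining isoforms were scarce. Cox8b, another heart and muscle form, measured 3.603, 5.05 and 5.27 TPM in interneurons and 5.94, 2.31 and 3.33 in astrocytes. It measured at most 1.52 elsewhere and stayed at or under 0.522% of its family. Cox7b2 measured 2.05, 6.54 and 1.91 TPM in astrocytes and at most 1.07 elsewhere, and its call in glia against neurons was lost when single libraries were left out, astrocyte replicate 2 among them. Cox8c had reads in 1 interneuron and 1 astrocyte library only, below 0.2 TPM. Ndufa4l2, known as a hypoxia-induced inhibitor of complex I, measured 4.59, 4.86 and 5.18 TPM in microglia, 1.38, 1.42 and 1.23 in astrocytes and at most 1.02 in neurons. Microglia were above all others, the difference from neurons was 3.57 (SE 0.19, adjusted p = 4.8e-12 by edgeR), and the share of the Ndufa4 family was 1.26 to 1.47%.

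**Figure D4:**
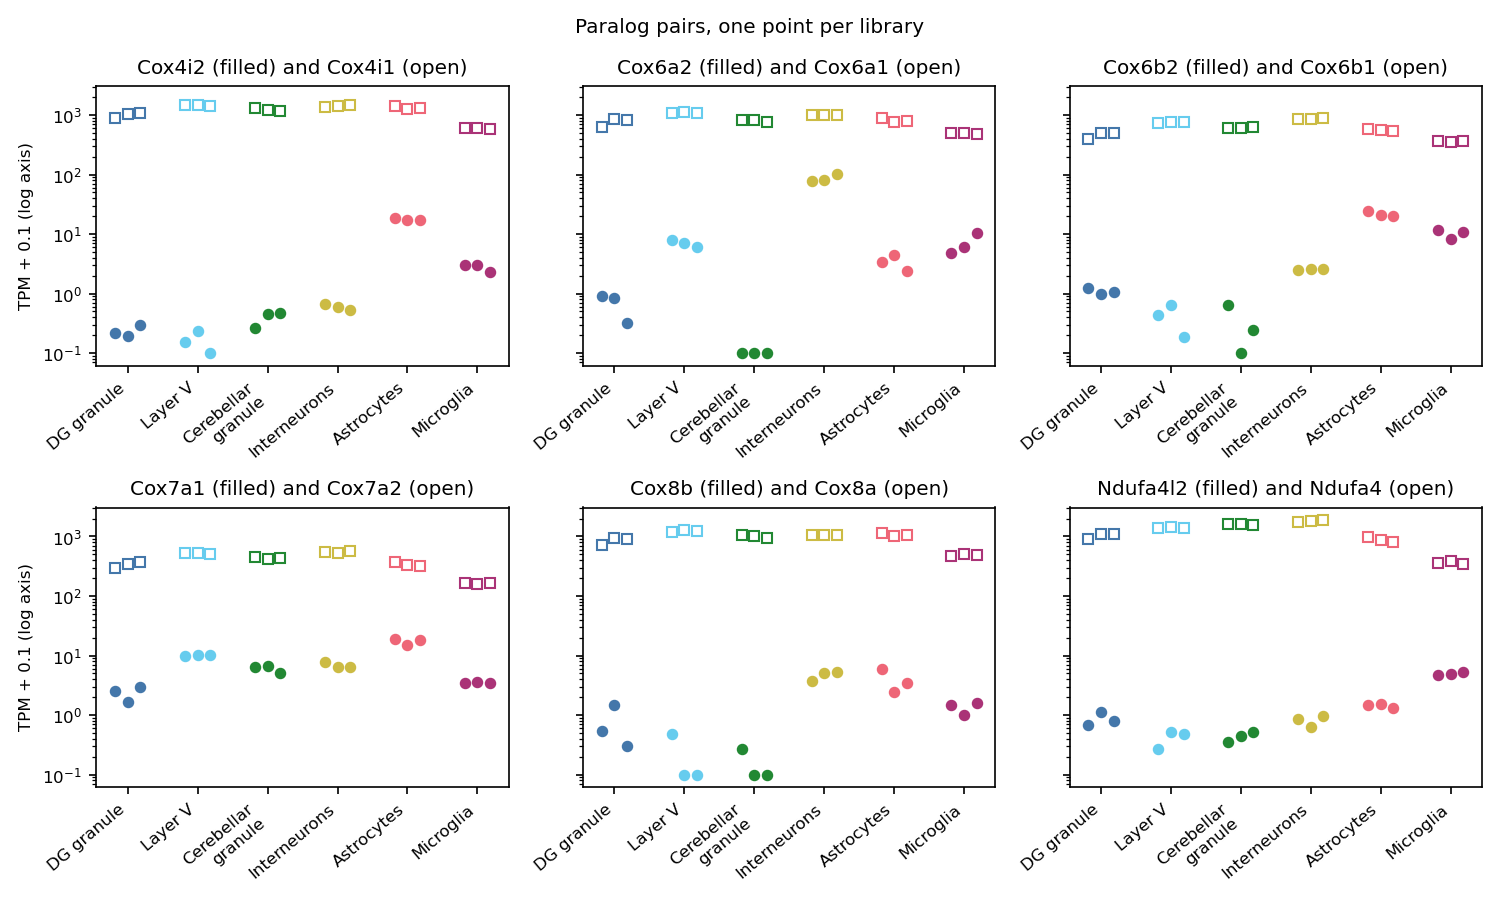
TPM plus 0.1 on a log axis for 6 pairs of paralogs in each cell type, 1 point per library, with the restricted isoform filled and the common one open. Cox6a2 is raised in interneurons, Cox4i2, Cox6b2 and Cox7a1 in astrocytes and Ndufa4l2 in microglia, and the common isoform lies well above in each pair.

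The c-ring of ATP synthase is encoded by Atp5g1, Atp5g2 and Atp5g3, whose mature proteins are alike and whose import signals differ. Atp5g3 had the highest TPM of these genes in every cell type. Atp5g1 measured 665, 647 and 669 TPM in interneurons, 563, 547 and 540 in layer V neurons, 346, 453 and 441 in dentate gyrus granule cells, 307, 299.6 and 279.7 in cerebellar granule cells, 234, 204 and 205 in astrocytes and 163, 164 and 168 in microglia. No 2 neighbours in this order overlapped. As a share of the family, Atp5g1 was lowest in astrocytes, 17.6 to 18.9%, next lowest in cerebellar granule cells, 22.3 to 23.1%, and made up 33.8 to 35.8% in microglia and 34.9 to 35.2% in layer V neurons. Atp5g2 was 0.885 to 3.67% in every library, but its count could not be told apart from its pseudogene Gm10175, which took a mean of 4266 counts beside 457 for Atp5g2. With the TPM of pseudogenes added to Atp5g2, its share was 35.0 to 36.1% in microglia and 11.1 to 11.3% in interneurons.

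Most of the 13 mitochondrially encoded genes were highest in astrocytes and lowest in cerebellar granule cells. The order of the other types differed between genes. By median share the leading gene differed between cell types, with mt-Co1, mt-Co2 or mt-Co3 of complex IV at the head. These genes share sequence with copies in nuclear DNA, and how far that moved their shares was not tested. The gene mt-Co1, which encodes the catalytic subunit of complex IV (chrM:5328-6872, plus strand), measured 3772, 3334 and 2916 TPM in astrocytes, 1715, 1931 and 2455 in microglia, 1141, 1040.01 and 1696 in dentate gyrus granule cells, 1042, 1406 and 1321 in interneurons, 600.5, 697 and 727 in layer V neurons and 401, 339.9 and 377 in cerebellar granule cells. Dentate gyrus granule cells and interneurons overlapped, and every other step was separate. The subunit mt-Atp6 of ATP synthase measured 3755, 3230 and 2589 TPM in astrocytes, 1386, 1650 and 1974 in microglia and 236, 195 and 238 in cerebellar granule cells, which were lower than forebrain neurons by 2.13 on the log2 scale (SE 0.20, adjusted p = 2.4e-08 by edgeR). For mt-Nd6, the only mRNA of the opposite mitochondrial strand, the difference was -0.98 (SE 0.20), and for mt-Atp8, which shares bases with mt-Atp6 in the annotation, it was -1.11 (SE 0.30).

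The mix of mitochondrial mRNAs also differed. In the median library of cerebellar granule cells, mt-Atp8 made up 6.89% of mitochondrial TPM and mt-Co3 13.4%. In microglia they made up 1.93% and 6.68%. The share of mt-Cytb was 5.42% in cerebellar granule cells and 11.4% in microglia. Of these genes, mt-Co3 shares sequence with a nuclear copy and mt-Atp8 shares bases with mt-Atp6. How far this moved their shares was not tested. Relative to the nuclear subunits of the same complex, mitochondrially encoded TPM was highest in microglia for complex IV, at a median of 1.204 against 0.914 in astrocytes and 0.106 in cerebellar granule cells. With pseudogene TPM added, which includes the nuclear copies of mt-Co1, mt-Co2 and mt-Co3, these medians were 2.13, 1.42 and 0.150. For complex I it was 1.03 in microglia and 0.0809 in cerebellar granule cells, for complex III 0.828 and 0.0362, and for complex V 0.393 and 0.0319.

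**Figure D5:**
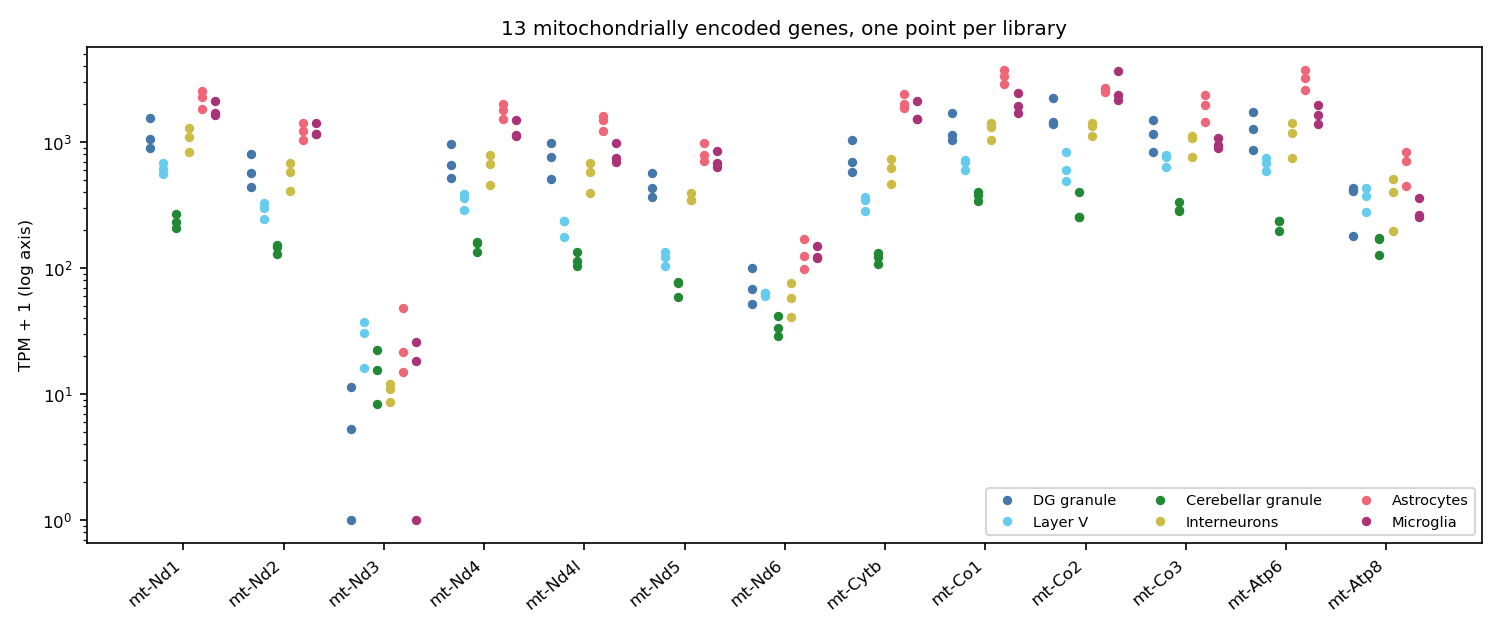
TPM plus 1 on a log axis of the 13 mitochondrially encoded genes, 1 point per library, coloured by cell type. Astrocytes and microglia lie above and cerebellar granule cells below in most genes, and mt-Nd3 stands apart near the bottom with overlapping cell types.

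The gene mt-Nd3, a small membrane subunit of complex I, was the exception in nearly every comparison. Its nuclear copy Gm28438 differs from it at 1 of 345 aligned bases, T3C, counted from 1 at the first base of the windows shown, with the mt-Nd3 base first. The windows are the first 30 bases of the gene at chrM:9459-9806 (plus strand) and of the copy at chr1:24612775-24613119 (minus strand), both in GRCm38, and the capital marks the difference.
mt-Nd3: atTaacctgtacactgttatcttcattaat
Gm28438: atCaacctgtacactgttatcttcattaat
The copy was assigned a mean of 1148 counts and mt-Nd3 itself 88.1. In TPM, mt-Nd3 measured 4.32, 0 and 10.5 in dentate gyrus granule cells, 15.1, 29.5 and 36.7 in layer V neurons, 7.40, 14.5 and 21.4 in cerebellar granule cells, 7.63, 9.91 and 11.1 in interneurons, 47.2, 20.7 and 14.0 in astrocytes and 17.2, 0 and 25.0 in microglia. Most of these ranges overlapped. With the copy's counts added, mt-Nd3 was lower in cerebellar granule cells than in forebrain neurons (-0.98, SE 0.14, adjusted p = 3.4e-06 by edgeR) and higher in glia than in neurons (0.97, SE 0.09), as were all 13 genes in both comparisons. The call of mt-Nd3 as higher in layer V neurons than in dentate gyrus granule cells (2.59, SE 0.90) became 0.82 (SE 0.15) with the added counts. Without dentate gyrus replicate 1 or 2 or layer V replicate 3, the call on mt-Nd3 alone was lost. Other members with such copies were mt-Co2, which had 0 differences from Gm28661 over 681 bases, mt-Co3, with 0 from Gm28437 over 783, and mt-Co1, with 6 from Gm29216 over 492.

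For each member, the protein-coding transcript of highest mean TPM over the 18 libraries was taken as the leading one. Which transcript led within each cell type was not examined. Of 55 members with at least 2 protein-coding transcripts, 3 had a leading transcript whose share changed by over 30 percentage points between cell types. Of these, 2 genes, Cox4i2 and Cox6b2, were near 0 in the type with the low share. The third was Ndufv1, the subunit of complex I that binds NADH, where Ndufv1-201 made up 92.7 to 94.5% of the gene's TPM in layer V neurons and 59.8 to 65.3% in microglia. The median difference over the 55 genes was 5.31 points.

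Genes that assemble the complexes or feed them were, like the nuclear subunits, mostly lower in microglia than in neurons. The shares of all genes in this comparison were 37.2% lower and 45.1% higher. Of 48 assembly factors tested, 32 were lower in microglia than in neurons and 11 higher, with a median of -0.55, and of 78 mitochondrial ribosomal proteins 60 were lower and 6 higher, with a median of -0.50. Of 17 genes of pyruvate dehydrogenase and the citric acid cycle 15 were lower and 1 higher, with a median of -1.37. The 1 higher was Suclg2, the GTP-forming subunit of succinyl-CoA ligase, with a mean of 50.3 TPM in microglia and 139.9 in astrocytes against 0.471 to 1.65 in the neuron types. Astrocytes exceeded microglia for 16 of these 17 genes, beside 39.8% of all genes in that comparison, with citrate synthase, Cs, at 450.5 and 72.2 TPM. Of the subunits and carrier missed by the symbol rule, Ndufab1 had means of 611 TPM in interneurons and 162 in microglia, and Cyc1 and Cycs, which encode cytochromes c1 and c, were also lower in microglia than in neurons, Cycs by 2.04 on the log2 scale.

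The regulators and the upkeep genes of mitochondrial DNA and RNA gave other counts. Of 28 tested, 19 were higher and 5 lower in cerebellar granule cells than in forebrain neurons, beside 34.9% and 43% of all genes, with a median of 0.47, where the nuclear and mitochondrially encoded subunits had medians of -0.15 and -1.84. Those higher included the transcription factor genes Nrf1, with a mean of 28.1 TPM in cerebellar granule cells and 9.16 to 14.8 in the forebrain types, and Gabpb1, with 53.9 against 12.9 to 20.5. Tfam, which packages mitochondrial DNA and starts its transcription, was also highest there, at 71.6 TPM. The coactivator gene Ppargc1a had its highest mean in interneurons, 57.4 TPM, beside 12.7 to 19.0 in the other neurons, 28.9 in astrocytes and 2.01 in microglia. In microglia 13 of the 28 were lower and 11 higher than in neurons, near the shares of all genes. The mitochondrial ribosomal proteins in cerebellar granule cells were mostly lower, 46 of 78, with 15 higher.

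Nuclear subunit genes are known targets of NRF1, of the ETS factor that contains Gabpb1, of YY1 and of the receptor ERRalpha. RefSeq promoter windows of GRCm38.p6, from 250 bases before to 50 after the start, were at hand for 68 nuclear symbols (73 windows) and were searched on both strands. The NRF1 core GCGCANGCG stood in 21 windows, 28.8% against 6.25% of 32851 windows of all genes. The YY1 motif AAGATGGCG was found in 9.59% against 1.40%, the ETS motif CCGGAAGT in 6.85% against 3.89%, and the ERRalpha motif TCAAGGTCA in 2.74% against 0.423%. At least 1 of them stood in 41.1% of member windows and 11.05% of all windows. A match is a description of the letters and shows no binding.

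The windows of 2 common isoforms, Cox6a1 at chr5:115348909-115349208 and Cox8a at chr19:7217567-7217866, and of the scarce Cox8b at chr7:140900397-140900696, all on the minus strand, are shown because Cox6a1 and Cox8a were among the most abundant members and Cox8b never passed 0.522% of its family. Capitals mark the NRF1 core in Cox6a1 (3 matches, of which the first 2 overlap) and the ETS motif, read on the other strand, in Cox8a. None of the 4 motifs was found in the Cox8b window, nor in those of the common isoforms Cox6b1, Cox7a2 and Ndufa4 or of Atp5b.
Cox6a1: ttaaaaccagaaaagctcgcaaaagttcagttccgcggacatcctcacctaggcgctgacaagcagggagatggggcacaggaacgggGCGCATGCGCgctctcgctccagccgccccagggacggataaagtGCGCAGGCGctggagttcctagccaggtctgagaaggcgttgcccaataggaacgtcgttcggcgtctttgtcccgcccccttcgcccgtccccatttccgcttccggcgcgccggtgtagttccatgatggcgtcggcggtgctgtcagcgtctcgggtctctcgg
Cox8a: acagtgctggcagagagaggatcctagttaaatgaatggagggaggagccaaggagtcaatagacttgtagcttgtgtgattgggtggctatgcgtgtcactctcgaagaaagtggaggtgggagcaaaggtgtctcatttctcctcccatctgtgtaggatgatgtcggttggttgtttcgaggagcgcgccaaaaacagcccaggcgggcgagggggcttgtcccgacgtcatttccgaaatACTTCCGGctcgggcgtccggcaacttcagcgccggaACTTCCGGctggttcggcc
Cox8b: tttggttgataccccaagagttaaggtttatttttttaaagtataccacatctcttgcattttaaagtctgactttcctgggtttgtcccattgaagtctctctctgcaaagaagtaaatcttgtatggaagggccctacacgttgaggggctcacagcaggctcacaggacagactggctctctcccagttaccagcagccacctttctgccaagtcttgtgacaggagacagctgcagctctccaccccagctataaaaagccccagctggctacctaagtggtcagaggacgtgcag
Members without a window included Atp5a1, Atp5mpl, Cox4i1, Cox4i2, Cox6a2, Cox6c, Cox8c, Ndufa2, Ndufa4l2, Ndufb1-ps, Ndufb9, Ndufs1, Sdhc, Uqcrb, Uqcrc2 and Uqcrq.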

How the data were processed

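HA-tagged ribosomes were immunoprecipitated from brain tissue and polyadenylated RNA was sequenced in 22 libraries. Reads were cut to remove adapters by cutadapt 3.5 and assigned by kallisto 0.46.2, from which the authors deposited estimated counts and TPM for each transcript of GENCODE M24 (GRCm38). TPM and estimated counts were summed per gene here, and the sums of counts were rounded. Each of the 18 replicates entered with 1 library, of batch 1 where it had been sequenced in both batches. Total estimated counts ran from 38270477 to 71440915, so counting error is small for most members, but not for the scarce isoforms or mt-Nd3.

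Counts were fitted in edgeR 4.0.16 (R 4.3.3; TMM, filterByExpr, glmQLFit and glmQLFTest) with cell type as the only term, which left 20524 genes. The 5 planned contrasts were orthogonal, and astrocytes alone and microglia alone against neurons were added after the values were seen and share the neuron libraries. P-values were adjusted by Benjamini-Hochberg over all genes tested. Nothing says that replicates came from separate litters, so p-values measure the spread between these samples. Sums, shares and gene lists were described without a test. Alternatives were upper-quartile scaling, DESeq2 1.42.0, limma 3.58.1 on log2(TPM + 1), no filter on low counts, protein-coding transcripts only, other choices of batch, the replicate number as a block, single libraries left out, and reads of pseudogenes added to members with which they shared at least 10% of 31-mers. In the fit of all 22 libraries, both libraries of a repeated replicate entered as separate samples. The scripts were tested on simulated data.

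The members and lists were chosen with earlier results of these data known. Named by rule were all mt- members, all members of paralog families, the 4 Sdh genes, for each planned contrast the 5 highest and 5 lowest members among those called, the nuclear members of highest and lowest mean level per complex, members that failed the filter and members whose leading transcript changed. Other named genes, among them Ndufs8, Ndufb11 and the examples from the pathway lists, were chosen after their values were seen. Atp5g2, Ndufb4, Cox7c and several mitochondrially encoded genes share sequence with pseudogenes, and overlapping genes such as mt-Atp6 and mt-Atp8 can share reads. One member is not reported by name here.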

Additional observations from a re-analysis of the deposited data

How the results depend on the processing

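Over 196 pairs of a named gene and a contrast, 5961 values were computed under 13 settings and with each of 18 libraries left out, and 5813 kept direction and call, 125 lost the call and 23 changed sign. Glia against neurons averages types that differ: with astrocytes alone 52 nuclear members were higher and 11 lower, and with microglia alone 7 were higher. Batch 1 holds no microglia, so within it the contrast is of astrocytes with 3 neuron types. It gave 61 nuclear members higher and 7 lower, beside 45.9% and 34.5% of all genes. The values that changed sign there included Cox5a 0.24, Sdhd 0.39, Atp5g3 0.29, Sdha 0.43, Ndufa6 0.040, Ndufb4 0.10, Ndufs1 0.21, Ndufs5 0.28, Ndufc2 0.59, Cox7b 0.11, Cox4i1 0.41, Cox8a 0.32, Cox6b1 0.21, Ndufv1 0.049, Uqcrfs1 0.70, Cox6a1 0.20, Uqcrh 0.41 and Ndufb1-ps 0.088. For cerebellar granule cells, Cox6b1 was 0.017 in batch 1 alone, and upper-quartile scaling gave 17 nuclear members higher.

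With limma on log2(TPM + 1), the sign changed for Cox6a2 in glia against neurons (-0.021), Ndufb2 in cerebellar granule cells (-0.30) and Uqcrfs1 in layer V neurons against dentate gyrus granule cells (-0.015). The median over all genes under limma was -0.12 for glia, 0.11 for interneurons and -0.18 for layer V neurons, against 0.18, -0.00 and -0.05. For interneurons limma gave 1 nuclear member lower, 2 mitochondrially encoded genes higher and 0 lower, and no filter on low counts gave 2 higher. For layer V neurons against dentate gyrus granule cells the nuclear members lower were 9 with limma, beside 7838 of 18095 genes. They were 4 with batch 2 libraries for the repeated replicates, beside 6466 of 20847 genes. With all 22 libraries and batch as a covariate they were 3, beside 7396 of 20927 genes. In batch 2 only, each of these types had 1 library, so counts of calls from that fit are not given. One repeat library used only in the fits with other choices of batch, layer V replicate 1 of batch 2, had Xist at 2.13 and Ddx3y at 0.03 TPM although labelled male. The cause of these changes was not tested.

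Without single libraries, nuclear members higher ran from 12 to 15 in glia, 25 to 30 in cerebellar granule cells and 44 to 54 in interneurons, and nuclear members lower from 36 to 44 in cerebellar granule cells, 7 to 11 in interneurons and 1 to 2 in layer V neurons. The latter was 2 without layer V replicate 1 or 2, cerebellar granule replicate 1 or 2 or microglia replicate 2. Mitochondrially encoded genes higher ran from 5 to 9 in astrocytes against microglia, 1 to 2 in interneurons (2 without dentate gyrus replicate 3) and 0 to 1 in layer V neurons, and those lower from 0 to 1 in interneurons and 8 to 10 in layer V neurons. In interneurons mt-Nd6 was the 1 gene lower, and it was lost without any of 10 libraries. The folds of summed TPM ran from 2.59 to 2.65 for the nuclear sum, 9.02 to 10.3 for the mitochondrial sum and 12.97 to 15.6 for their ratio. With the replicate number as a block, the count of mitochondrially encoded genes lower in interneurons was 0, and no other count moved by over 1.5 times. Of 45 same-numbered pairs of libraries 3 had deviations that correlated over 0.1 (range -0.10 to 0.11), as did 2 of 90 pairs of different number (range -0.12 to 0.13). The medians were 0.039 and -0.020. Of 18 libraries, 12 correlated best with one of their own number, although only 45 pairs were same-numbered and 90 were not. What lies behind this was not tested. The labels name nothing that a number marks, so it was not taken as a pairing.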
